A study of Homo sapiens with 12 samples.

Results

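Regulators of ubiquitin-dependent signalling to NF-kB, 9 genes in all, were followed on expression arrays of 2 lymphoma lines: TNFAIP3, TNIP1, TNIP2, TNIP3, CYLD, OTULIN, RNF19B, TRAF1 and BIRC2. They were taken by symbol, each through the array probe set annotated to that symbol alone, which gave 9 of the 18417 genes measured, with 1 probe set a gene. U-H01 was derived from a Hodgkin lymphoma, and HBL-1 from an activated B-cell-like diffuse large B-cell lymphoma. All cells, uninduced ones included, had been infected with hairpins against RelB or cRel, with 2 sequences for each, and doxycycline switched the hairpin on in part of each population. U-H01 gave 4 uninduced arrays and 4 labelled induced: 2 transduced populations, B1 and B2, were each sampled at 2 time points. HBL-1 gave 2 of each kind, with population C sampled at 2 time points. The labels do not state which subunit the hairpin of each population targets, and call the B2 induced arrays Seq2. U-H01 was grown with 20% serum and HBL-1 with 10%, so that line, serum and population cannot be told apart where the lines are compared. Whether replicate arrays stand for separate cultures is not said in the labels, and the p-values below then reflect only array-to-array spread, which may be technical.

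Receptors of the TNF family and antigen receptors build ubiquitin chains on adaptor proteins, and these chains hold together the kinases that free NF-kB. BIRC2 (cIAP1) is a ligase that builds such chains, TRAF1 is an adaptor that docks at the receptors, and TNFAIP3 (A20), CYLD and OTULIN take chains apart or edit them. The TNIP proteins (ABIN-1, ABIN-2 and ABIN-3) bind both ubiquitin and A20. TNFAIP3 and TRAF1 are themselves well-known targets of NF-kB, and TNFAIP3 is often inactivated by mutation in Hodgkin lymphoma and in activated B-cell-like lymphoma.

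Stretches upstream of A20 and of 2 ABIN genes are shown because they hold the letters that NF-kB subunits are known to bind, the factors this study set out to deplete. The windows come from RefSeq on GRCh38.p14 and were matched by symbol for 8 of the 9 genes, with 16 windows in all, each of 300 bases from 250 before to 50 after a gene start. The 10-base NF-kB consensus motif was searched on both strands, and capitals mark its matches in the 100 bases before the start furthest upstream, written 5′ to 3′ on the gene's strand.
TNFAIP3, chr6:137867159-137867258, plus strand: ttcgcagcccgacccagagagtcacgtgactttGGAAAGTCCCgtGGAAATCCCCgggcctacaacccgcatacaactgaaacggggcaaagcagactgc
TNIP1, chr5:151081035-151081134, minus strand: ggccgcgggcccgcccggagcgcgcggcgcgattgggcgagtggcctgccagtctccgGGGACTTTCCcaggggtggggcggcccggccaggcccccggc
TNIP3, chr4:121227484-121227583, minus strand: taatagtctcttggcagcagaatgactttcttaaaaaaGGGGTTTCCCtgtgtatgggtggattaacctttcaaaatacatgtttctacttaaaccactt

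The TNFAIP3 stretch holds 2 matches, from -67 to -58 and from -55 to -46 relative to the start base, counted as 0. TNIP1 holds 1, from -42 to -33. TNIP3 holds 1 at this start and 1 at its start furthest downstream, and both of these read as a match on either strand. CYLD has a match from -189 to -180 of 1 of its 3 starts and another that begins at the start furthest downstream. In all, 4 of the 8 genes and 6 of the 16 windows had a match, where 13.3% of all 27305 genes and 11.3% of all 35116 windows did. A gene counted if any of its windows matched. The 8 genes had more windows a gene than all genes had, so the shares of genes are not like for like. The windows of TRAF1, BIRC2, OTULIN and TNIP2 hold no match, which says only that these letters are not in these windows.

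The arrays fell into 3 clusters: uninduced U-H01, U-H01 labelled induced, and HBL-1. Within a group, arrays had correlations of 0.991 to 0.996 over 19460 probe sets. U-H01 arrays labelled induced correlated with uninduced U-H01 arrays at 0.893 to 0.91 and with HBL-1 arrays at 0.904 to 0.917. A check for mixed-up samples split the 8 U-H01 arrays, with 4 that did not match the other 4, so the U-H01 comparison sets 2 kinds of arrays side by side and may compare different cells. All 4 arrays labelled induced stand apart, so no U-H01 comparison can be given without them. Over a list of 6 measured B-cell markers of 7, the mean log2 level was 6.18 to 6.44 in uninduced U-H01 arrays, 8.08 to 8.38 in those labelled induced and 10.21 to 10.34 in HBL-1. Over 5 Hodgkin cell markers it was 7.86 to 8.01, 6.89 to 7.06 and 6.51 to 6.69. Between the 2 kinds of U-H01 arrays, 3 B-cell markers of 6 were higher in those labelled induced: CD79A (log2 difference 5.31), CD22 (4.11) and PAX5 (2.76). BLK was lower (-0.79), and MS4A1 and CD79B were not called. Of 5 Hodgkin cell markers, 3 were lower, CD274 (-5.79), FSCN1 (-1.84) and CCL22 (-1.75), and CCL17 was not called. TNFRSF8, which encodes CD30, went the other way and was higher (4.70). The uninduced lines did not differ past the threshold in TNFRSF8 (0.26, adjusted p = 0.107, limma). The called markers differ between the same arrays as every U-H01 result below, and their part in it was not tested. The mean levels of the T and NK cell and the myeloid lists lay between 4.40 and 5.31, below the array medians of 5.79 to 5.88 and that of the stromal, endothelial and epithelial list was 5.36 to 5.72; 2 of 8 T and NK cell, 0 of 7 myeloid and 2 of 8 stromal markers were called in U-H01, all higher. No marker of these lists was called between induced and uninduced HBL-1, where 0.603% of all genes were. In bulk RNA, fewer cells of a type and less RNA per cell cannot be told apart.

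The genes of the 2 hairpin targets were checked first. RELB, which encodes RelB, lay at 7.23 to 7.54 in uninduced U-H01 arrays and at 7.14 to 7.39 in those labelled induced, a log2 difference of -0.15 ± 0.09 (SE) that did not pass (adjusted p = 0.209, limma). REL, which encodes cRel, was at 9.70 and 9.78 in uninduced HBL-1 and at 9.13 and 9.37 in induced HBL-1, a difference of -0.49 ± 0.12 (SE) that did not pass over all genes either (adjusted p = 0.123). REL in U-H01 (0.20 ± 0.09, unadjusted p = 0.0349, adjusted p = 0.0721) and RELB in HBL-1 (-0.19 ± 0.12, unadjusted p = 0.162, adjusted p = 0.749) did not pass. Neither target gene passed within a line after adjustment, so directions rest on the labels, and the U-H01 arrays are called "labelled induced".

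In U-H01 the 9 genes split. TRAF1 and TNFAIP3 were higher in the arrays labelled induced, 6.51-fold and 5.07-fold, and CYLD and RNF19B were lower, 4.36-fold and 3.98-fold. BIRC2, OTULIN, TNIP3 and TNIP1 were lower by 1.57-fold or less, and TNIP2 did not pass. That makes 8 of 9 called at an adjusted p under 0.05, 2 higher and 6 lower, in a comparison where 45.8% of all genes were called, 22.3% higher and 23.5% lower. With 1 array left out the count was 6 to 9. With arrays centred on their medians TNIP1 and TNIP3 no longer passed and TNIP2 did, and the calls over all genes moved from 4115 higher and 4320 lower to 6981 and 3414. The median log2 difference of the 9 genes was -0.31 against 0.03 over all genes, and the median size regardless of sign 0.65 against 0.21. The mean levels of the 9 genes stood at percentiles 62.1 to 94 of all genes, and the 9 were chosen with earlier results known. What part level and choice have in these counts and sizes was not tested. The groups did not overlap in 6 of the 9 genes, as in 41.1% of all genes.

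**Figure D1:**
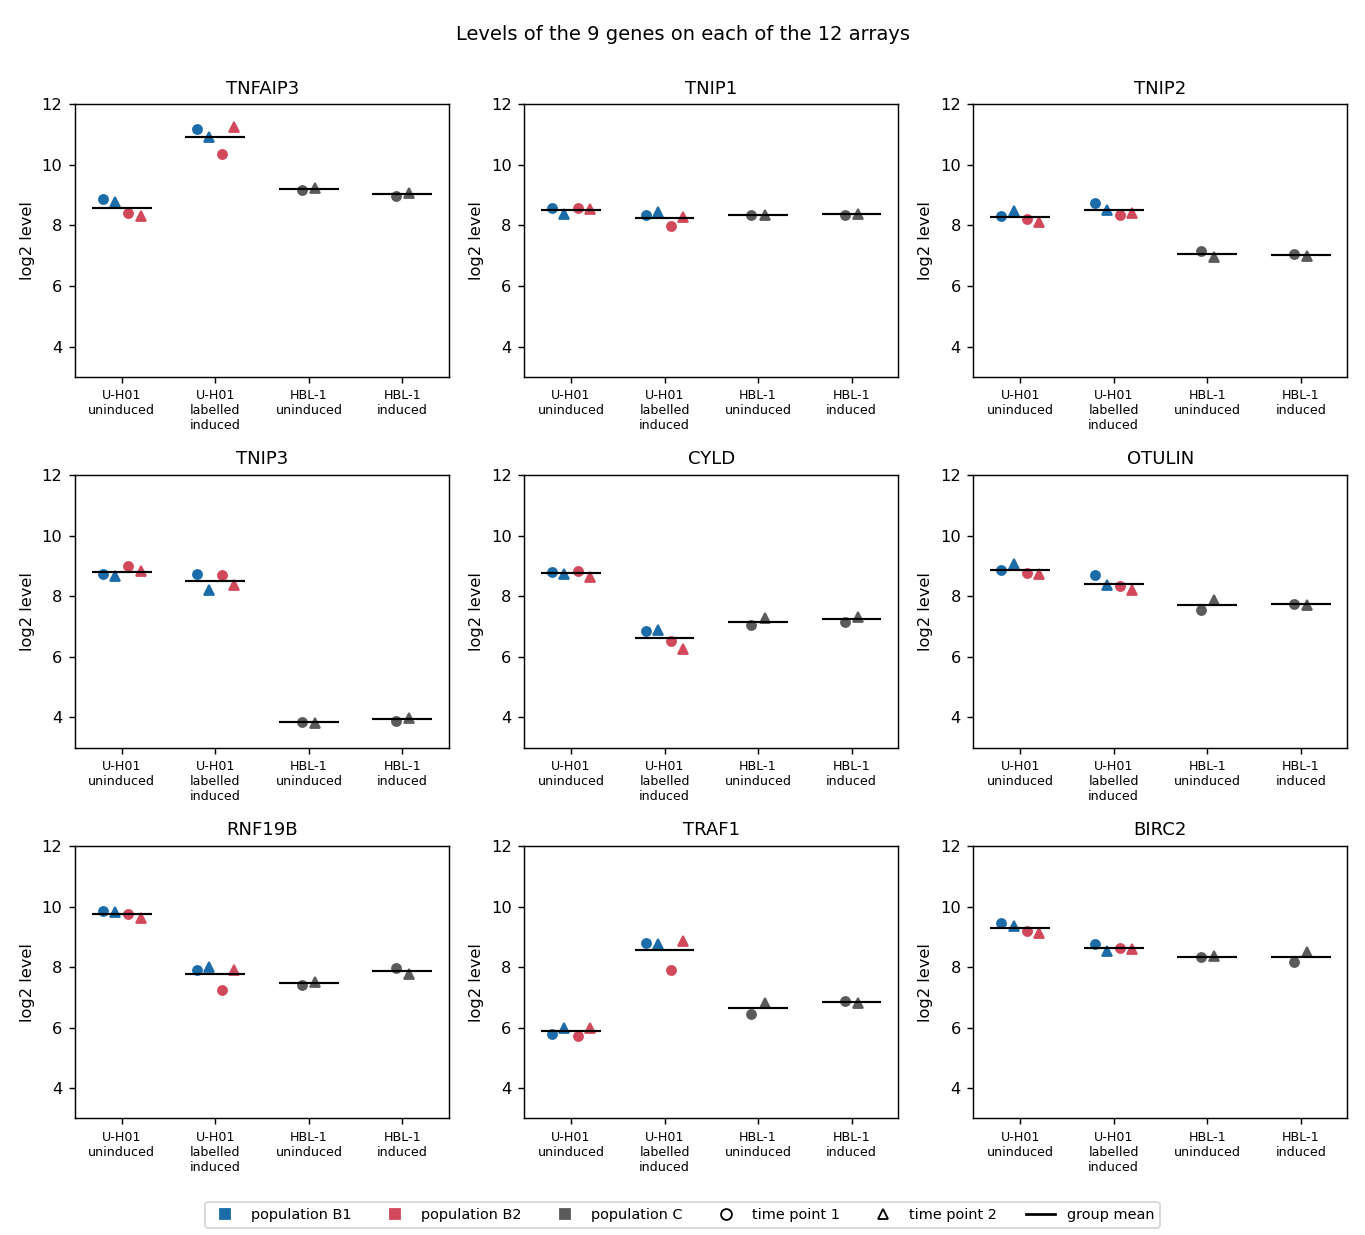
Log2 level of each of the 9 genes (y axis) on the 12 arrays by group (x axis); colour gives the population, shape the time point, and the bar the group mean. TRAF1 and TNFAIP3 are highest in the U-H01 arrays labelled induced, CYLD and RNF19B in uninduced U-H01, and TNIP3 lies between 3.81 and 3.98 in all HBL-1 arrays.

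TNFAIP3 encodes A20, which removes one kind of ubiquitin chain from signalling adaptors and attaches another that marks them for destruction. Its log2 level in uninduced U-H01 was 8.87 and 8.77 in B1 and 8.40 and 8.32 in B2. In the arrays labelled induced it was 11.20 and 10.92 in B1 and 10.37 and 11.25 in B2. Every array labelled induced lay above every uninduced one, by 1.5 at the closest, and the lowest of them was B2 at time point 1. The difference was 2.34 ± 0.15 (SE, n = 4 per group, adjusted p = 5.56e-08, limma), at 2.24 ± 0.21 in B1 and 2.45 ± 0.21 in B2. This size stands at the 96.7th percentile of all genes.

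In HBL-1 the TNFAIP3 level was 9.18 and 9.24 without and 8.98 and 9.09 with induction. Both pairs were lower with induction, by a fitted -0.18 ± 0.22 (SE, n = 2 per group, adjusted p = 0.902), with a 95% interval of -0.65 to 0.30. Uninduced U-H01 arrays were thus the lowest of the 4 groups and those labelled induced the highest. The uninduced lines differed by -0.62 ± 0.19 (U-H01 minus HBL-1, adjusted p = 0.0166), a call lost without either uninduced HBL-1 array (adjusted p up to 0.187). Labelled induced U-H01 exceeded induced HBL-1 by 1.90 ± 0.19 (adjusted p = 3.79e-06).

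The 3 ABIN genes showed smaller U-H01 differences than TNFAIP3, of 0.31 or less in size. TNIP3, which encodes ABIN-3, set the lines apart more than any other of the 9 genes. Without induction its level was 8.75 and 8.68 in B1 and 9.00 and 8.84 in B2, and it was 8.73 and 8.22 in B1 and 8.69 and 8.39 in B2 in the arrays labelled induced. In HBL-1 it was 3.85 and 3.81 without and 3.89 and 3.98 with induction. These HBL-1 levels lie below the lower quartile of every array, 4.18 to 4.28, and may be background, so that a fold against them can understate the difference. Uninduced U-H01 exceeded uninduced HBL-1 by 4.99 ± 0.11 (SE, n = 4 and 2, adjusted p = 5.21e-12), a measured 31.7-fold and the 99.6th percentile of all genes by size. The arrays labelled induced exceeded induced HBL-1 by 4.57 ± 0.11 (adjusted p = 1.54e-11).

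Between the 2 kinds of U-H01 arrays TNIP3 differed little. It was lower in the arrays labelled induced in 4 of 4 pairs, by -0.02 and -0.46 in B1 and -0.31 and -0.45 in B2, and the groups overlapped. The fitted difference was -0.31 ± 0.09 (adjusted p = 0.0113). That call was lost without uninduced replicate 4, which is B2 at time point 2 (adjusted p = 0.0504), and with arrays centred on their medians (-0.18, adjusted p = 0.130). In both clusters of U-H01 arrays TNIP3 lay above 8.2, and in no HBL-1 array above 4.0.

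TNIP2, which encodes ABIN-2, a partner of the kinase TPL2 as well as of A20, also separated the lines. Its level was 8.13 to 8.48 in uninduced U-H01, 8.33 to 8.75 in the arrays labelled induced, 7.15 and 6.95 in uninduced HBL-1 and 7.05 and 6.98 in induced HBL-1. The U-H01 groups overlapped, as did those of HBL-1. Uninduced U-H01 exceeded uninduced HBL-1 by 1.24 ± 0.10 (adjusted p = 7.17e-07), 2.36-fold, and arrays labelled induced exceeded induced HBL-1 by 1.48 ± 0.10 (adjusted p = 1.61e-07). Within U-H01 the difference of 0.21 ± 0.08, positive in 4 of 4 pairs, missed the threshold (adjusted p = 0.0622). It passed without replicate 2 labelled induced (0.26, adjusted p = 0.0385), after quantile normalization (0.20, adjusted p = 0.0442), with arrays centred on their medians (0.34, adjusted p = 0.00688) and with probe sets below the median level left out (adjusted p = 0.0412).

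TNIP1, which encodes ABIN-1, was nearly level over all 12 arrays, from 7.98 to 8.59. The difference in U-H01 was -0.26 ± 0.10, with 3 of 4 pairs lower and overlapping groups, and stood just inside the threshold (adjusted p = 0.0496). Of 12 fits with 1 array left out, 10 lost the call, all but those without uninduced replicate 2 or replicate 2 labelled induced (adjusted p up to 0.212). It was also lost with the replicate block (0.0601), with all probe sets tested (0.0777), with U-H01 fitted alone (0.0695) and with arrays centred on their medians (-0.13, adjusted p = 0.291). The lines did not differ past the threshold, at 0.19 ± 0.12 without induction (95% interval -0.08 to 0.46, adjusted p = 0.258) and -0.11 ± 0.12 with it (95% interval -0.38 to 0.16, adjusted p = 0.579).

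CYLD and OTULIN are dedicated deubiquitinases, and of this pair CYLD had the larger U-H01 difference. CYLD is a deubiquitinase and tumour suppressor that takes apart the chains on which NF-kB kinases assemble. Its level in uninduced U-H01 was 8.79 and 8.75 in B1 and 8.84 and 8.64 in B2. In the arrays labelled induced it was 6.86 and 6.88 in B1 and 6.52 and 6.25 in B2. No uninduced array came within 1.76 of an array labelled induced. The difference was -2.13 ± 0.10 (SE, n = 4 per group, adjusted p = 3.3e-09), at the 96.1st percentile of size. It was -1.90 ± 0.11 in B1 and -2.35 ± 0.11 in B2, and the difference between these of -0.45 ± 0.16 did not pass (adjusted p = 0.280).

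HBL-1 lay between the 2 kinds of U-H01 arrays for CYLD, at 7.04 and 7.29 without and 7.15 and 7.32 with induction. Induction gave 0.07 ± 0.14 there (95% interval -0.25 to 0.38, adjusted p = 0.955), and those groups overlapped. Uninduced U-H01 was above uninduced HBL-1 by 1.59 ± 0.13 (adjusted p = 4.36e-07). The arrays labelled induced were below induced HBL-1 by -0.60 ± 0.13 (adjusted p = 0.00178), a call lost without induced HBL-1 replicate 1 (-0.57, adjusted p = 0.0675). The sign of the difference between the lines was thus not the same for both kinds of U-H01 array.

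OTULIN removes linear ubiquitin chains and no other kind. Its level was 8.86 and 9.06 in B1 and 8.77 and 8.74 in B2 without induction, and 8.70 and 8.39 in B1 and 8.33 and 8.21 in B2 in the arrays labelled induced. In HBL-1 it was 7.53 and 7.86 without and 7.75 and 7.72 with induction. The 2 kinds of U-H01 arrays were separated by only 0.04, and the HBL-1 groups overlapped. The U-H01 difference was -0.45 ± 0.10 (adjusted p = 0.0018), lower in 4 of 4 pairs. Both kinds of U-H01 array exceeded HBL-1, by 1.16 ± 0.12 without (adjusted p = 4.53e-06) and 0.67 ± 0.12 with induction (adjusted p = 0.000522). The latter call was lost without induced HBL-1 replicate 2 (0.49, adjusted p = 0.0648).

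Among the ubiquitin ligases, RNF19B is known as NKLAM, a ligase first described in the cytolytic granules of natural killer cells. Its level in uninduced U-H01 was 9.86 and 9.83 in B1 and 9.75 and 9.61 in B2. In the arrays labelled induced it was 7.92 and 8.01 in B1 and 7.25 and 7.91 in B2, with B2 at time point 1 the lowest. All 4 pairs were lower, and the groups stood 1.60 apart. The difference was -1.99 ± 0.12 (adjusted p = 3.24e-08), at the 95.5th percentile of size.

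In HBL-1 RNF19B was at 7.41 and 7.52 without and 7.97 and 7.77 with induction. Of the 9 genes it showed the largest difference there, 0.40 ± 0.17 (SE, n = 2 per group), higher in both pairs, but it did not pass over all genes (unadjusted p = 0.0408, adjusted p = 0.476, limma). With HBL-1 fitted alone, on 1 residual degree of freedom, its adjusted p was 0.0483. Among the alternatives the adjusted p lay between that value and 0.974. Uninduced U-H01 exceeded uninduced HBL-1 by 2.30 ± 0.15 (adjusted p = 7.46e-08). The arrays labelled induced overlapped induced HBL-1, at -0.10 ± 0.15 (95% interval -0.42 to 0.23, adjusted p = 0.696).

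BIRC2 encodes cIAP1, a ligase that also keeps the noncanonical pathway off by helping to destroy its kinase NIK. Its level was 9.44 and 9.36 in B1 and 9.20 and 9.13 in B2 without induction. In the arrays labelled induced it was 8.76 and 8.53 in B1 and 8.63 and 8.61 in B2. Groups did not overlap, with a gap of 0.37, and the difference was -0.65 ± 0.09 (adjusted p = 3.8e-05). In HBL-1 it was 8.34 and 8.36 without and 8.17 and 8.51 with induction, a difference of -0.01 ± 0.12 (95% interval -0.28 to 0.26, adjusted p = 0.995).

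Uninduced U-H01 exceeded uninduced HBL-1 in BIRC2 by 0.93 ± 0.11 (adjusted p = 1.17e-05). Labelled induced U-H01 exceeded induced HBL-1 by 0.29 ± 0.11, just inside the threshold (adjusted p = 0.0476). This last call was lost with the replicate block (0.0635), with no time point term (0.0572), with all probe sets tested (0.0694) and in 9 of 12 fits with 1 array left out, all but those without replicate 2 labelled induced of U-H01 or either uninduced HBL-1 array. Its adjusted p reached 0.665 without induced HBL-1 replicate 1, where the value was 0.13.

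TRAF1, the adaptor, had the largest difference of the 9 genes between the 2 kinds of U-H01 arrays. It lacks the ligase domain of its relatives, and it recruits cIAP proteins through TRAF2 at receptors such as CD30 and CD40. Its level in uninduced U-H01 was 5.78 and 6.0 in B1 and 5.73 and 5.97 in B2, close to the array medians of 5.79 to 5.88. In the arrays labelled induced it was 8.80 and 8.75 in B1 and 7.90 and 8.86 in B2. Groups were 1.90 apart, and B2 at time point 1 was again the lowest of the arrays labelled induced. The difference was 2.70 ± 0.15 (SE, n = 4 per group, adjusted p = 1.03e-08), at the 97.5th percentile of size, with 2.88 ± 0.20 in B1 and 2.52 ± 0.20 in B2.

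In HBL-1 TRAF1 was at 6.45 and 6.82 without and 6.89 and 6.82 with induction, and the groups overlapped. The difference of 0.22 ± 0.21 did not pass (95% interval -0.23 to 0.68, adjusted p = 0.857). The order of the groups was that of TNFAIP3 except within HBL-1, with labelled induced U-H01 on top and uninduced U-H01 at the bottom. Uninduced U-H01 was below uninduced HBL-1 by -0.76 ± 0.18 (adjusted p = 0.00393), a call lost without uninduced HBL-1 replicate 2 (-0.54, adjusted p = 0.196). Labelled induced U-H01 was above induced HBL-1 by 1.72 ± 0.18 (adjusted p = 6.49e-06).

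**Figure D2:**
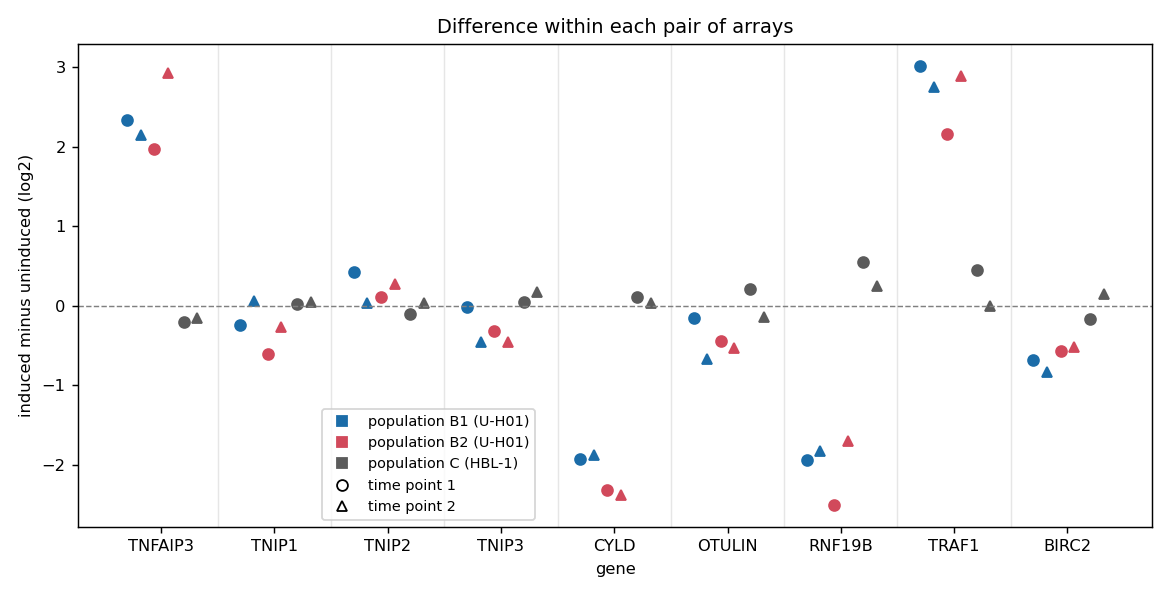
Log2 difference between the induced and the uninduced array of each pair (y axis) for the 9 genes (x axis); colour gives the population and shape the time point. The 4 U-H01 pairs of TNFAIP3 lie between 1.97 and 2.93 and those of CYLD between -2.38 and -1.87, and no HBL-1 pair lies beyond -0.20 or 0.55.

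In HBL-1 none of the 9 genes changed past the threshold by limma, and 1 of them, RNF19B, had an unadjusted p under 0.05. Here 0.603% of all genes were called, 111 of 18417 (0.418% higher and 0.185% lower), and 1794 had an unadjusted p under 0.05. The median size of difference was 0.07 over the 9 genes and 0.10 over all genes. Groups of 2 arrays did not overlap in 4 of the 9 genes, TNFAIP3, TNIP1, TNIP3 and RNF19B, as in 41.3% of all genes. The 95% intervals of the 9 genes reach from -0.65 to 0.78, so a log2 change of 1 lies outside each of them. Their width rests on a spread shared with the U-H01 arrays, which may be technical, and not on the 2 HBL-1 arrays a group alone.

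Between the uninduced lines 8 of the 9 genes differed, 6 higher in U-H01 (TNIP3, RNF19B, CYLD, TNIP2, OTULIN and BIRC2) and 2 lower (TRAF1 and TNFAIP3), where 42.8% of all genes were called, 20.7% higher and 22.1% lower. All 9 had groups that did not overlap, as had 55.3% of all genes. Between the arrays labelled induced 7 of 9 differed, against 38.5% of all genes (17.9% higher and 20.6% lower), 6 higher in U-H01 (TNIP3, TNFAIP3, TRAF1, TNIP2, OTULIN and BIRC2) and CYLD lower. Groups did not overlap in 7 of 9 there, against 48.5% of all genes. These comparisons share arrays with those of induction.

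**Figure D3:**
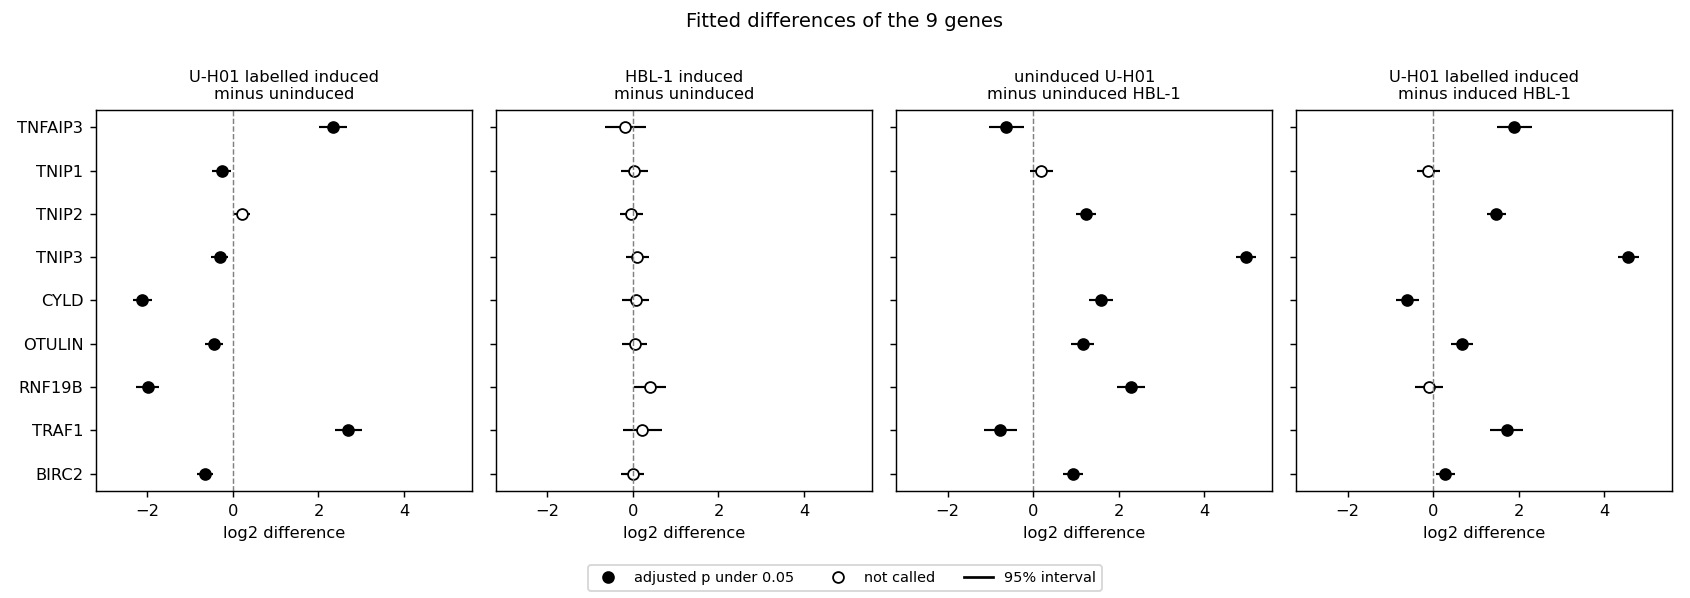
Fitted log2 difference (x axis) with its 95% interval for the 9 genes in 4 comparisons; filled points passed an adjusted p under 0.05. In the first panel TRAF1 and TNFAIP3 lie above 2, CYLD and RNF19B near -2, and in the second panel no gene passed.

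The difference between induced and uninduced arrays was itself compared between the lines. It differed in 6 of 9 genes, where 32.4% of all genes were called, 15.4% with a higher value in U-H01 and 17% with a lower one. TNFAIP3 (2.52 ± 0.26) and TRAF1 (2.48 ± 0.26) had a higher value in U-H01, and RNF19B (-2.39 ± 0.21), CYLD (-2.19 ± 0.18), BIRC2 (-0.64 ± 0.15) and OTULIN (-0.49 ± 0.17) a lower one. The OTULIN call (adjusted p = 0.0419) was lost with the replicate block (0.0583), with arrays centred on their medians (-0.37, adjusted p = 0.144), with all probe sets tested (0.0716) and in 8 of 12 fits with 1 array left out (up to 0.367), all but those without replicate 1 of either U-H01 group or replicate 2 of either HBL-1 group. That of BIRC2 was lost without either HBL-1 replicate 2 array (adjusted p = 0.0943). TNIP3 at -0.42 ± 0.15 did not pass (adjusted p = 0.0566), but did so without replicate 1 of either U-H01 group (adjusted p = 0.0310 and 0.0184), after quantile normalization (0.0324) and with probe sets below the median level left out (0.0370). Between the populations B2 and B1 the difference passed in 0 of 9 genes by limma, with CYLD alone at an unadjusted p under 0.05, and 0.586% of all genes were called (0.358% higher in B2 and 0.228% lower), with 2103 genes at an unadjusted p under 0.05.

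Genes whose levels ran closest to each of the 9 over the 12 arrays were found by the root mean square difference of log2 values, each gene centred on its own mean. For TRAF1, whose own spread about its mean was 1.16, these were STARD4 (0.23) and IKBKE (0.24). IKBKE encodes an IkB kinase-related enzyme and stood at 7.08 ± 0.16 in uninduced U-H01, 9.58 ± 0.45 in the arrays labelled induced (SD, n = 4 each), and 7.58 and 7.62 as means of uninduced and induced HBL-1. For TNFAIP3, with a spread of 1.03, they were ISCU (0.23) and ZFYVE9 (0.24). For CYLD, at 0.91, they were PRIM1 and NIPA1 (both 0.12), and for RNF19B, at 0.99, they were MTM1 (0.15) and HOXD13 (0.18). For TNIP3, at 2.26, they were APOBEC3B (0.21) and GCSAM (0.38).

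The genes closest to the others were PHF1 (0.11) and CCNDBP1 (0.13) for TNIP2, and CDKAL1 (0.093) and PDLIM5 (0.11) for OTULIN. For BIRC2 they were EXT2 (0.077) and TAF7 (0.099), and for TNIP1 they were RABGEF1 (0.080) and TBX21 (0.082). The spread about the mean of these 4 genes was 0.66, 0.49, 0.41 and 0.16 in that order. None of the 9 genes was among the 2 closest to another. With only 2 of 18417 genes kept for each, this does not say whether the 9 run alike. These values are a description over 12 arrays in 3 clusters, in which many genes share the pattern of the clusters.

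Other genes of the pathway were taken from a list. Of 29 listed, 23 had a probe set with 1 symbol. In U-H01, 9 of these were higher in the arrays labelled induced, 8 were lower and 6 did not pass, with a median difference of -0.07. Of all genes 22.3% were higher and 23.5% lower. RNF11, a partner of A20, was lower by -1.69 ± 0.08 (adjusted p = 2.48e-09), from 8.46 ± 0.06 to 6.77 ± 0.08 (SD, n = 4 each). RNF19A, the ligase most like RNF19B, was lower by -1.62 ± 0.08 (adjusted p = 5.55e-09), from 10.10 ± 0.09 to 8.48 ± 0.19. TRAF3, an adaptor that restrains the noncanonical pathway together with cIAP1, was higher by 1.83 ± 0.11 (adjusted p = 2.14e-08), and TRAF4 was higher by 1.25 ± 0.07 (adjusted p = 2.42e-08).

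Members of the linear ubiquitin ligase were not alike in U-H01. RBCK1 was lower by -0.86 (adjusted p = 1.34e-05) and SHARPIN by -0.43 (0.00062), and RNF31, its catalytic subunit, was higher by 0.26 (0.0299). Of the other A20 partners, TAX1BP1 was higher by 0.31 (adjusted p = 0.0189) and ITCH, at -0.07, did not pass (0.555). In HBL-1, 0 of 23 passed by limma, where 0.603% of all genes did. TRAF5 (0.52, unadjusted p = 0.00428) and OTUB1 (0.25, 0.0398) had an unadjusted p under 0.05, with adjusted p of 0.183 and 0.472, followed by TRADD (-0.28) and RNF11 (0.21).

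Between the uninduced lines 14 of the 23 were higher in U-H01, 4 were lower and 5 did not pass, with a median difference of 0.45, where 20.7% of all genes were higher and 22.1% lower. Between labelled induced U-H01 and induced HBL-1, 9 were higher, 3 were lower and 11 did not pass, with a median of 0.08, where 17.9% of all genes were higher and 20.6% lower. RNF19A (1.90 ± 0.10), TRAF3 (1.93 ± 0.13) and TRAF5 (1.69 ± 0.13) were higher in U-H01, and TRAF4 (-1.48 ± 0.09) was lower, with adjusted p of 2.77e-07 or less. Between the arrays labelled induced, TRAF3 (3.75, adjusted p = 3.05e-10, limma) and TRAF5 (1.21, adjusted p = 6.48e-06) were again higher in U-H01. RNF19A (0.13) and TRAF4 (-0.19) did not pass there. Both RNF19 genes were thus higher in uninduced U-H01 than in the arrays labelled induced and in HBL-1.

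**Figure D4:**
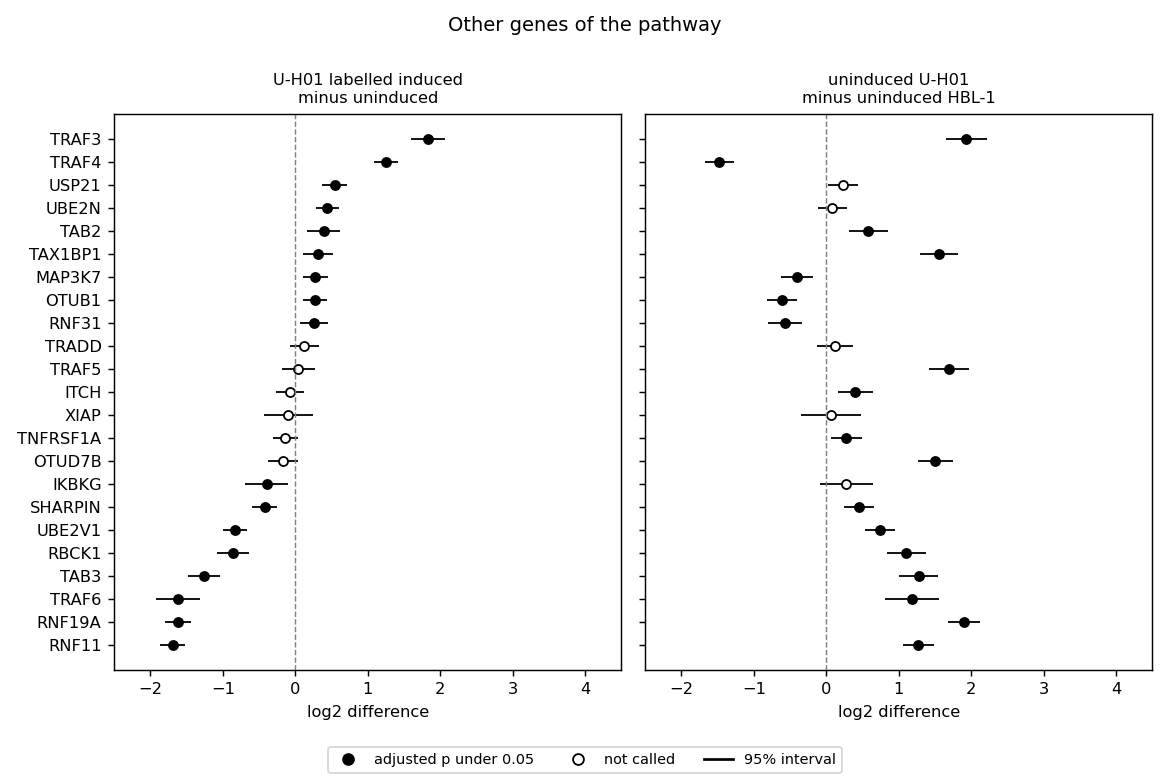
Fitted log2 difference (x axis) with its 95% interval for 23 other genes of the pathway, ordered by the U-H01 difference, in 2 comparisons; filled points passed an adjusted p under 0.05. In U-H01 the differences run from -1.69 for RNF11 to 1.83 for TRAF3.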

How the data were processed

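The authors deposited log2 expression values of 33297 probe sets on 12 arrays, for which the submitters' processing notes name RMA and the Partek software, without version. RMA normalizes arrays to like distributions, which can hide a shift of all genes. RNA came from kit extracts with RIN above 9, per the labels' protocols. The platform annotation gives 1 symbol to 19460 probe sets, several to 1754 and none to 12083, and only the first were tested. The probe set with the highest mean stood for a gene. All 9 symbols matched the RefSeq gene table.

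One linear model over all arrays (limma 3.58.1, R 4.3.3, lmFit and eBayes) held population, time point within line and induction within line, 7 terms with 5 residual degrees of freedom. For B2 against B1 each population had its own induction term. Tests were two-sided, with Benjamini-Hochberg adjustment over the 19460 probe sets and calls at an adjusted p under 0.05. The model was also run on simulated arrays, with known shifts added to independent noise around the uninduced U-H01 means. Those arrays have no shared cultures and no clusters, so the run cannot speak to these limits of the real arrays. Per the labels, pairs are parts of 1 transduced population. Deviations of paired arrays from group means correlated at -0.02 to 0.14.

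The genes and lists were chosen with earlier results of these data known. Named are the 9 genes, both target genes, for each of the 9 the 2 closest genes, and from the pathway list the 4 with the smallest p in each induction and between the uninduced lines; further members of that list were named after their values were seen. Alternatives were each array left out, the replicate block, quantile normalization, median centring, a level filter, all probe sets, trend and robust options, each line alone, no time term and the mean over probe sets. The number of arrays limits the precision. Figures used matplotlib 3.10.9 under Python 3.11.15.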

Additional observations from a re-analysis of the deposited data

Results flagged for a closer look

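Within the group of 4 U-H01 arrays labelled induced, B2 at time point 1 lay far from the others in 2 genes, at 7.90 for TRAF1 and 7.25 for RNF19B. About 1 in 20 groups is expected to show such a gap by chance, and 18 groups were looked at. Without this array the U-H01 differences were 2.90 for TRAF1 and -1.84 for RNF19B.

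For 6 genes, the difference between arrays labelled induced and uninduced was not the same in U-H01 and HBL-1, by a test in limma. The U-H01 arrays may be of different cells, and the hairpin target of each population is not stated. Line, hairpin and cells therefore cannot be told apart in this test. The U-H01 minus HBL-1 value was 2.52 for TNFAIP3, 2.48 for TRAF1, -2.19 for CYLD, -2.39 for RNF19B, -0.64 for BIRC2 and -0.49 for OTULIN. In each of the first 4, all U-H01 pairs moved by 1.70 or more on the log2 scale, and no HBL-1 pair by more than 0.55.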

How the results depend on the processing

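The U-H01 differences of TNFAIP3, TRAF1, CYLD, RNF19B, OTULIN and BIRC2 kept direction and call under all 21 alternatives, of which 10 moved these values and 11 left them as they were and bear only on their spread or adjustment. The values were 2.12 to 2.51, 2.56 to 2.90, -2.22 to -1.99, -2.09 to -1.84, -0.53 to -0.32 and -0.70 to -0.52. Centring arrays on their medians moved every U-H01 difference up by 0.13 and the median of all genes to 0.16. It moved the calls of the uninduced lines from 3820 higher and 4068 lower to 3343 and 4759, and those of the arrays labelled induced from 3304 and 3793 to 3680 and 3374. The replicate block ended the calls of TNIP1, of BIRC2 between lines and of OTULIN between inductions, given above, and no other among the 9 genes.

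In HBL-1 the count over all genes, 111, was 73 with probe sets above the median level, 38 with all probe sets and 868 with the line fitted alone, where 1 of the 9 genes passed. It was 8 to 149 with 1 array left out, 15 without either replicate 1 array and 8 without either replicate 2 array. That of B2 against B1, 108, was 2 with all probe sets, 212 with trend and robust options, 36 with U-H01 alone and 15 to 129 with 1 array left out, moved by over 1.5 times by each array but replicates 1 and 3 labelled induced. Several values that had not passed changed sign with 1 array left out, and the cause was not tested. In HBL-1 these were TNIP2 (-0.10 to 0.031), OTULIN (-0.14 to 0.21), TRAF1 (-0.0011 to 0.45) and BIRC2 (-0.17 to 0.15, and 0.0033 with centring). Between the arrays labelled induced it was RNF19B (-0.25 to 0.0607). Between B2 and B1 they were TNFAIP3 (-0.31 to 0.73), TNIP2 (-0.18 to 0.11), TNIP3 (-0.31 to 0.0211), OTULIN (-0.25 to 0.11), RNF19B (-0.57 to 0.12) and TRAF1 (-0.77 to 0.0583). Where 1 HBL-1 array is left out, its partner no longer informs the induction, and the remaining pair is assumed to vary like the other groups.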
